A study of Homo sapiens with 9 samples.

Results

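LIF, IL11 and other genes of gp130 signalling were followed in MDA-MB-231 cells exposed to JQ1. The set was defined by gene symbol and holds 10 genes: the cytokines LIF and IL11, the receptor chains IL6ST, LIFR, OSMR and IL6R, the kinases JAK1 and JAK2, the transcription factor STAT3 and the feedback inhibitor SOCS3. Of these, 9 were matched to a row of the deposited array table and are described here, out of 14884 named genes. IL6ST, the gene of gp130 itself, is not analysed here. No filter on dim genes was applied, so all 9 entered the tests.

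MDA-MB-231 is an established triple-negative breast cancer line with a mesenchymal character. JQ1 is a small molecule that displaces BET bromodomain proteins from acetylated chromatin. RNA was taken from 3 samples after 12 h of 500 nM JQ1, from 3 samples after 24 h of 500 nM JQ1 and from 3 control samples with no agent at time 0, all of them MDA-MB-231 cells in DMEM with serum, and each was read on its own 1-colour Human Gene 2.0 ST array. No vehicle is named for the controls and none was taken at 12 h or 24 h, so JQ1, its solvent and the hours in culture cannot be told apart. Nothing in the labels states that the 3 samples of a group came from separate cultures, and p-values then measure only how these samples scatter, which can be technical. In bulk RNA, fewer cells expressing a gene and less RNA per cell cannot be told apart either.

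Most cytokines of the IL-6 family signal through gp130. LIF brings together LIFR and gp130, oncostatin M brings together gp130 with OSMR or LIFR, and IL-6 and IL-11 first bind a receptor chain of their own, IL6R or IL11RA, before they recruit gp130. These receptors have no kinase domain and depend on JAK1, JAK2 and TYK2, which are bound to their tails and phosphorylate STAT3. STAT3 then enters the nucleus and induces, among other genes, SOCS3, which binds gp130 and the JAKs and ends the signal. In breast cancer, IL-11 is known as a factor that tumour cells release in bone metastasis, where it promotes bone resorption.

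Values are log2 array signals as deposited, with array medians between 4.92 and 4.96. Differences are relative to the rest of the array, and values of different genes are not compared with each other, since their probes differ. AXL, CD44, MSN and VIM, 4 of 5 markers fixed as present in the line, read between 7.15 and 12.36 over all arrays. No detection threshold was set, so these levels are not a test of presence. ESR1, PGR and EPCAM, 3 of 5 genes fixed as low in this line, read between 3.93 and 6.49, and EPCAM was called lower at 12 h (−0.28, adjusted p = 0.0485) and not at 24 h (−0.26, adjusted p = 0.0519). DCN and LUM, 2 of 5 fibroblast markers, read between 2.91 and 3.47, and CD14 and LCP2, 2 of 5 leukocyte markers, between 4.11 and 4.72, and none of these 4 passed the test in either comparison with control.

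Control 3 stood apart from the other controls. Over all rows it correlated with Controls 1 and 2 at 0.9832 and 0.9828, whereas these correlated with each other at 0.9948. Its highest correlation with a JQ1 array, 0.9888, was above its correlation with either control, and the reason was not tested. The set was on the low side in Control 3: all 9 genes read below the average of Controls 1 and 2 there, as did 51.3% of all genes. The gap was −1.98 log2 for LIF, −1.45 for IL11, −1.02 for OSMR, −0.84 for LIFR and −0.81 for JAK1, and a gap at least as low was seen in 0.255%, 0.571%, 1.61%, 2.69% and 2.85% of all genes. For IL6R, STAT3, SOCS3 and JAK2 it was −0.41, −0.37, −0.09 and −0.03. Results for the set are therefore given with and without Control 3.

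After 12 h of JQ1, LIF and IL6R fell and SOCS3 rose, and the same held after 24 h. At 12 h 3 of the 9 genes were called (adjusted p under 0.05 over all 14884 genes), where 7.93% of all genes were. At 24 h 3 of 9 were called, where 11.5% of all genes were. At an unadjusted p under 0.05 the counts were the same 3 genes at both times, where 21.6% and 25% of all genes passed. Without Control 3, 5 of 9 were called at 12 h, where 20.1% of all genes were, with IL11 and OSMR added as lower. At 24 h 4 of 9 were called without Control 3, where 20.9% of all genes were, with IL11 added. The median difference over the 9 genes was 0.02 at 12 h and 0.03 at 24 h, beside 0.01 and 0.01 over all genes. Without Control 3 it was −0.07 and −0.06, beside 0.01 and 0.01 over all genes. LIFR, JAK1, JAK2 and STAT3 were not called in any of these 4 fits. The JQ1 12 h and control arrays did not overlap for 2 genes that lay higher (SOCS3 and STAT3) and 2 that lay lower (LIF and IL6R), as was so in these directions for 11.3% and 10.9% of all genes. The JQ1 24 h and control arrays did not overlap for 3 genes (26.1% of all genes), SOCS3 higher (13.3%) and LIF and IL6R lower (12.8%).

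**Figure D1:**
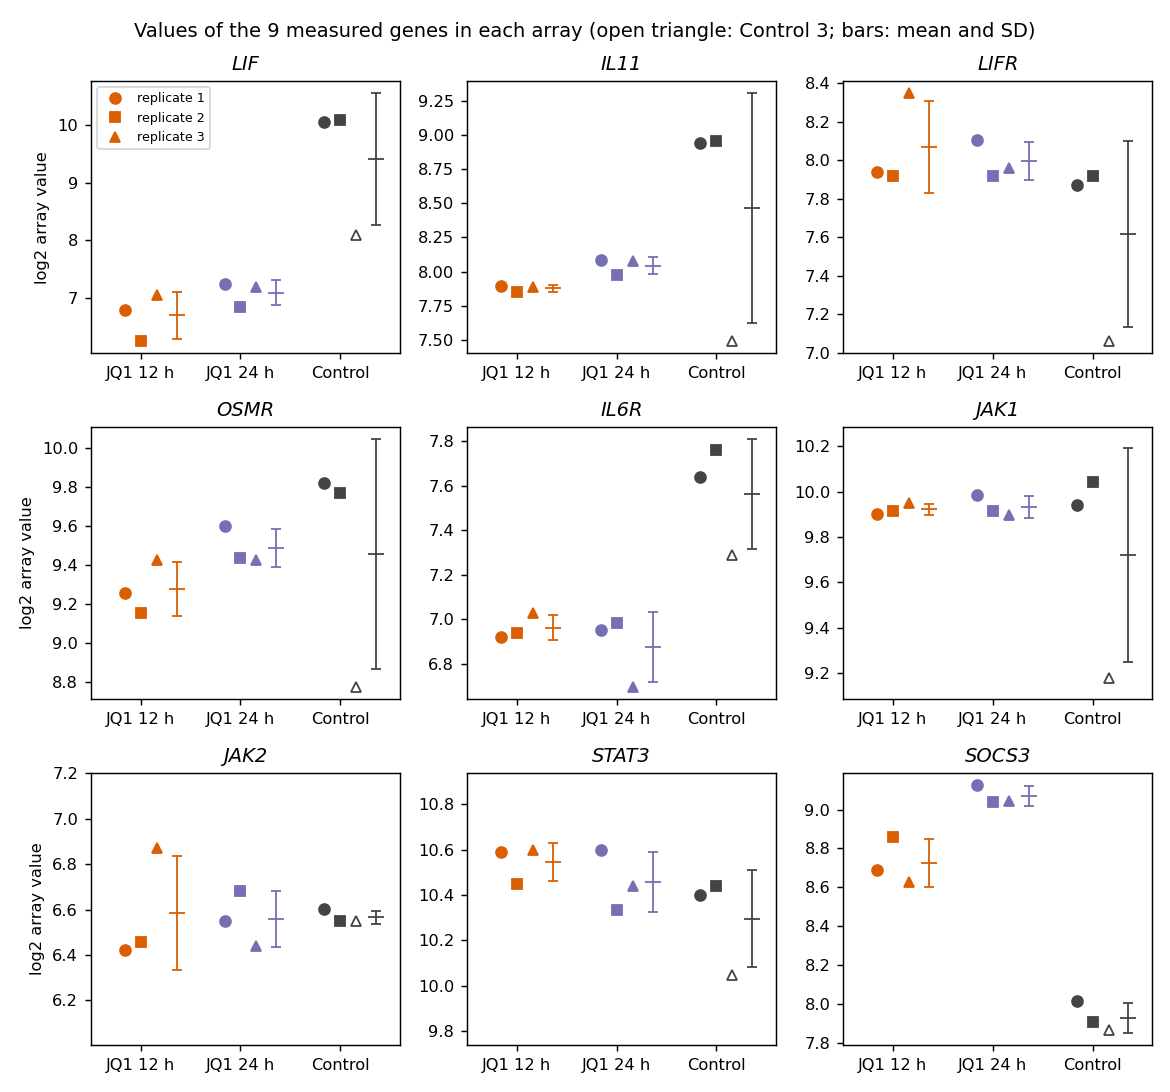
Log2 array values (y axis, a scale per panel) of the 9 measured genes in the JQ1 12 h, JQ1 24 h and control arrays, 1 point per array with the marker giving the replicate, and the mean with SD (n = 3) beside each group. LIF and IL6R lie lower in all 6 JQ1 arrays than in all 3 controls and SOCS3 lies higher, while Control 3 (open triangle) is the lowest of the 9 arrays for IL11, LIFR, OSMR, JAK1, STAT3 and SOCS3.

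LIF, the cytokine named for its effect on leukaemia cells and a ligand of LIFR, fell further than any other gene of the set. It read 6.78, 6.24 and 7.05 in the JQ1 12 h arrays and 7.24, 6.84 and 7.17 in the JQ1 24 h arrays, against 10.05, 10.09 and 8.09 in the controls. All 6 JQ1 values lay below the lowest control, Control 3, which itself lay between the JQ1 arrays and the other controls. LIF averaged 6.69 ± 0.41 at 12 h and 7.08 ± 0.22 at 24 h, against 9.41 ± 1.15 in controls (SD, n = 3 each). The log2 difference was −2.72 at 12 h, a 6.59-fold fall (SE 0.48, adjusted p = 0.0102), and −2.32 at 24 h, a 5.01-fold fall (SE 0.48, adjusted p = 0.0148). Without Control 3 the falls were 10.4-fold (log2 −3.38, SE 0.21, adjusted p = 1.25e-05) and 7.92-fold (log2 −2.99, SE 0.21, adjusted p = 1.84e-05). The 12 h call held whichever array was left out, with adjusted p up to 0.049. At 24 h the call was lost when Control 1, Control 2 or JQ1 24 h replicate 2 or 3 was dropped (adjusted p up to 0.057).

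IL11 did not pass the test with all arrays and fell without Control 3. It read 7.90, 7.85 and 7.89 in the JQ1 12 h arrays and 8.09, 7.97 and 8.07 in the JQ1 24 h arrays, against 8.94, 8.96 and 7.49 in the controls. The treated arrays were closely grouped (SD 0.03 at 12 h and 0.06 at 24 h, against 0.84 in controls) and lay below Controls 1 and 2 but above Control 3, so that the groups overlapped. The log2 difference was −0.59 at 12 h (95% interval −1.32 to 0.15, adjusted p = 0.364) and −0.42 at 24 h (−1.16 to 0.32, adjusted p = 0.508). Without Control 3 it was −1.07 at 12 h, 2.10-fold lower (SE 0.07, adjusted p = 2.1e-05), and −0.90 at 24 h, 1.87-fold lower (SE 0.07, adjusted p = 4.78e-05). What sets Control 3 apart was not tested.

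RefSeq promoter sequences (GRCh38.p14) were looked up for the set and found for 9 of its 10 genes, in 17 entries, LIF being the gene without one. The 250 bases upstream of the start are shown for IL11, the ligand whose call turned on Control 3, and for IL6R and SOCS3, which were called in both comparisons; for SOCS3 the more upstream of 2 annotated starts is shown. Capitals mark matches to 4 motifs searched on both strands: the STAT element TTCNNNGAA, the AP-1 element TGANTCA, the NF-kB element and the TATA element TATAAA. The regions are chr19:55370464-55370713 (minus strand) for IL11, chr1:154405093-154405342 (plus strand) for IL6R and chr17:78360926-78361175 (minus strand) for SOCS3.
IL11: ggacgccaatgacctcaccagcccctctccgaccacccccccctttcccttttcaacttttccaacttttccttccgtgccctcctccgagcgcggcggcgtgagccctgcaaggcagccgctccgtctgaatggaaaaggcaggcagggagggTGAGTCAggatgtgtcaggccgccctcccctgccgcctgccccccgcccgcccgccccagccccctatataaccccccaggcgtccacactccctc
IL6R: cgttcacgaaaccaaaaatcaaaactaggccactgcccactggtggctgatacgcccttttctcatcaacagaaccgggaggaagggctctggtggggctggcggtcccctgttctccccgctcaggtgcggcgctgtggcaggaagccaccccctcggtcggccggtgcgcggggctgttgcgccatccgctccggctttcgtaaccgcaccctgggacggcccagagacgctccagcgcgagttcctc
SOCS3: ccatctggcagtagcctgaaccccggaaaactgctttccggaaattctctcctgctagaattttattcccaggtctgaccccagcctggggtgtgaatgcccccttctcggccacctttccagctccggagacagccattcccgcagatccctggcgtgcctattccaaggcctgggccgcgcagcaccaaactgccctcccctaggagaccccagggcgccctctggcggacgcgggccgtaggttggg

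The IL11 window held 1 match, an AP-1 element that begins 96 bases upstream of the start (TGAGTCA), and 0 of the others. The search took TATAAA to the letter, so the stretch tatataa near the end of this window did not count as a match. The AP-1 element was found in 6.57% of the 35116 RefSeq promoter windows of this length, the STAT element in 6.57%, the NF-kB element in 5.21% and the TATA element in 10.7%. The windows of IL6R and SOCS3 held 0 matches to the 4 motifs, and bases outside the windows were not searched. Among the other entries of the set, matches were found in LIFR alone, where windows of 2 of its 3 annotated starts each held 1 STAT element (TTCCTTGAA and TTCATCGAA) and 1 of these also held the TATA element. A match describes the letters of the window and not binding.

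Of 9 further ligands or ligand subunits of the family fixed as a list, 5 had a row (OSM, CTF1, IL27, EBI3 and IL31) and 0 were called at either time. At an unadjusted p under 0.05, 2 of the 5 passed at 12 h and 2 at 24 h, where 21.6% and 25% of all genes did. They were EBI3 and IL31 at both times, EBI3 lower and IL31 higher. CTF1, cardiotrophin-1, which like LIF signals through LIFR and gp130, read 7.73, 7.81 and 7.85 at 12 h and 8.47, 7.98 and 8.29 at 24 h, against 8.47, 8.41 and 7.20 in controls. Its difference was −0.23 at 12 h (adjusted p = 0.753) and 0.22 at 24 h (adjusted p = 0.734). Without Control 3 CTF1 was lower at 12 h (−0.64, adjusted p = 0.00636) and not called at 24 h (−0.19, adjusted p = 0.393). EBI3, a subunit of IL-27 named after its values were seen, was called lower in that fit at 24 h (−0.31, adjusted p = 0.0493) and not at 12 h (−0.31, adjusted p = 0.051).

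Among the receptors, IL6R fell and LIFR and OSMR were not called. IL6R, the chain that binds IL-6, read 6.92, 6.94 and 7.03 in the JQ1 12 h arrays and 6.95, 6.98 and 6.70 in the JQ1 24 h arrays, against 7.64, 7.76 and 7.29 in the controls. Every JQ1 value lay below every control. The fall was 1.52-fold at 12 h (log2 −0.60, SE 0.13, adjusted p = 0.0229) and 1.61-fold at 24 h (log2 −0.69, SE 0.13, adjusted p = 0.0102). Without Control 3 the log2 differences were −0.74 (adjusted p = 0.000923) and −0.82 (adjusted p = 0.000468). The 12 h call was lost without Control 1, Control 2 or any JQ1 12 h array, with adjusted p up to 0.0887, and the 24 h call held whichever array was left out, with adjusted p up to 0.0472.

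LIFR, the LIF receptor chain, read 7.94, 7.92 and 8.35 in the JQ1 12 h arrays and 8.11, 7.92 and 7.96 in the JQ1 24 h arrays, against 7.87, 7.92 and 7.06 in the controls. Control 3 was the lowest and JQ1 12 h replicate 3 the highest, and the groups overlapped through Control 2, which shared its value with a JQ1 array at each time. The difference was 0.45 at 12 h (95% interval −0.04 to 0.94, adjusted p = 0.276) and 0.38 at 24 h (−0.11 to 0.87, adjusted p = 0.342), and 0.17 and 0.10 without Control 3 (adjusted p = 0.47 and adjusted p = 0.709).

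OSMR, the oncostatin M receptor chain, read 9.25, 9.15 and 9.43 in the JQ1 12 h arrays and 9.60, 9.43 and 9.43 in the JQ1 24 h arrays, against 9.82, 9.77 and 8.77 in the controls. As for IL11, the JQ1 arrays lay between Control 3 and the other controls. The difference was −0.18 at 12 h (95% interval −0.72 to 0.37, adjusted p = 0.772) and 0.03 at 24 h (−0.51 to 0.58, adjusted p = 0.961). Without Control 3 OSMR was 1.43-fold lower at 12 h (log2 −0.52, SE 0.10, adjusted p = 0.0055), and at 24 h its difference of −0.31 missed the threshold (adjusted p = 0.0585).

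Of 4 further receptor chains, CNTFR and IL31RA had a row. IL31RA, which pairs with OSMR to bind IL-31, read 6.56, 6.76 and 6.82 at 12 h and 7.15, 7.05 and 7.02 at 24 h, against 7.81, 7.84 and 7.23 in controls, with no overlap at either time. It fell 1.88-fold at 12 h (log2 −0.91, SE 0.16, adjusted p = 0.0089), a call that held whichever array was left out. At 24 h its difference of −0.55 missed the threshold (adjusted p = 0.0513), and without Control 3 it was called there as well (−0.75, adjusted p = 0.000506). CNTFR, which binds ciliary neurotrophic factor, was not called (0.00 at 12 h and 0.04 at 24 h).

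**Figure D2:**
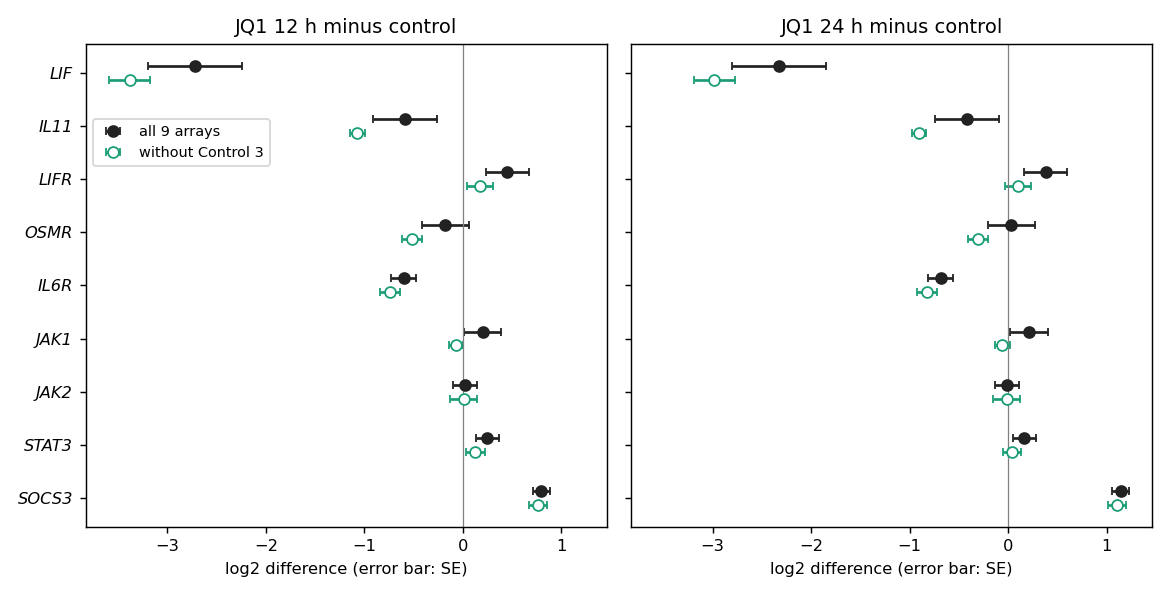
Log2 difference of each of the 9 genes (x axis, with SE) for JQ1 12 h minus control on the left and JQ1 24 h minus control on the right, fitted with all 9 arrays (filled) and without Control 3 (open). LIF moves to −3.38 and −2.99 and IL11 to −1.07 and −0.90 without Control 3, while SOCS3 stays between 0.77 and 1.14 in all 4 fits.

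The kinases and STAT3 were not called at either time, with or without Control 3. JAK1, the kinase on which gp130 signalling chiefly depends, read 9.90, 9.92 and 9.95 in the JQ1 12 h arrays and 9.99, 9.92 and 9.90 in the JQ1 24 h arrays, against 9.94, 10.04 and 9.18 in the controls. Its difference was 0.20 at 12 h (95% interval −0.23 to 0.63, adjusted p = 0.643) and 0.21 at 24 h (−0.22 to 0.64, adjusted p = 0.575), and it changed sign without Control 3, to −0.07 and −0.06. JAK2, which acts beside JAK1 on these receptors, read 6.42, 6.46 and 6.87 at 12 h and 6.55, 6.68 and 6.44 at 24 h, against 6.60, 6.55 and 6.55 in controls. Its differences were 0.02 (95% interval −0.26 to 0.29) and −0.01 (−0.28 to 0.27), with adjusted p = 0.965 and adjusted p = 0.98, and 0.01 and −0.02 without Control 3.

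STAT3 read 10.59, 10.45 and 10.60 in the JQ1 12 h arrays and 10.60, 10.34 and 10.44 in the JQ1 24 h arrays, against 10.40, 10.44 and 10.05 in the controls. At 12 h its groups did not overlap, as was so for 22.2% of all genes, and its difference of 0.25 was not called (95% interval −0.02 to 0.52, adjusted p = 0.263). At 24 h the groups overlapped (0.16, interval −0.10 to 0.43, adjusted p = 0.471). Without Control 3 the differences were 0.13 and 0.04. These are transcript levels, and the activity of STAT3, which depends on its phosphorylation, was not measured.

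Of 8 further JAK and STAT genes, 5 had a row (JAK3, TYK2, STAT4, STAT5A and STAT5B) and 0 were called at either time by limma. At an unadjusted p under 0.05, 0 of the 5 passed in both comparisons, where 21.6% and 25% of all genes did. Their differences ran from −0.25 to 0.21 at 12 h and from −0.09 to 0.25 at 24 h. TYK2, the third kinase of gp130 receptors, was at 7.43 ± 0.05 at 12 h and 7.38 ± 0.13 at 24 h, against 7.41 ± 0.02 in controls (SD, n = 3 each).

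SOCS3, the feedback inhibitor that STAT3 induces, rose at both times while LIF fell. It read 8.69, 8.86 and 8.63 in the JQ1 12 h arrays and 9.13, 9.04 and 9.04 in the JQ1 24 h arrays, against 8.01, 7.91 and 7.86 in the controls. All 6 JQ1 arrays lay above all 3 controls, and Control 3 lay close to the others. The rise was 1.74-fold at 12 h (log2 0.80, SE 0.08, adjusted p = 0.00138) and 2.21-fold at 24 h (log2 1.14, SE 0.08, adjusted p = 0.000134). Without Control 3 it was 0.77 (adjusted p = 0.000404) and 1.11 (adjusted p = 4.79e-05), and the call held at both times whichever array was left out. SOCS3 had a second, dimmer row, which read 5.38, 5.63 and 5.37 at 12 h and 5.37, 5.96 and 5.62 at 24 h, against 5.23, 4.86 and 4.76 in controls. In a fit over all 16098 named rows the second row was not called at 12 h (0.51, adjusted p = 0.112) and was higher at 24 h (0.70, adjusted p = 0.0303).

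Of 15 further negative regulators of JAK-STAT signalling, 7 had a row, the other SOCS genes and CISH. At 12 h 1 rose and 1 fell, where 3.54% of all genes rose and 4.39% fell. At 24 h 0 rose and 1 fell, where 5.17% of all genes rose and 6.34% fell. At an unadjusted p under 0.05, 5 of the 7 passed at 12 h and 6 at 24 h, where 21.6% and 25% of all genes did. Without Control 3, SOCS5, named after its values were seen, was called higher at 12 h (0.36, adjusted p = 0.0207) and at 24 h (0.36, adjusted p = 0.0214). SOCS1, which binds and inhibits JAKs directly, read 6.18, 6.16 and 6.05 at 12 h and 6.12, 5.92 and 5.86 at 24 h, against 5.60, 5.84 and 5.30 in controls. It rose at 12 h (log2 0.55, SE 0.13, adjusted p = 0.0386) and was not called at 24 h (0.38, adjusted p = 0.104). That 12 h call was lost without 7 of the 9 arrays, all but Controls 2 and 3, with adjusted p up to 0.121. SOCS2, best known as a brake on growth hormone signalling, went the other way, with 5.96, 5.63 and 5.86 at 12 h and 5.92, 5.82 and 5.96 at 24 h, against 6.22, 6.38 and 6.33 in controls. It fell at 12 h (−0.49, SE 0.10, adjusted p = 0.0182) and at 24 h (−0.41, SE 0.10, adjusted p = 0.0286). The 12 h call was lost without Control 2 or JQ1 12 h replicate 2 or 3 (adjusted p up to 0.0732), and the 24 h call when either of Controls 1 and 2 or a JQ1 24 h array was left out (up to 0.0979). SOCS4 was not called (9.11 ± 0.20 at 12 h and 9.01 ± 0.13 at 24 h, against 9.32 ± 0.08 in controls).

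gp130 also feeds the ERK pathway through the phosphatase SHP2 and its adaptors. Of 6 genes of this arm, 5 had a row (GAB1, GAB2, GRB2, SOS1 and SHC1). With all arrays 1 of the 5, SHC1, was called at 12 h and at 24 h, where 7.93% and 11.5% of all genes were. At an unadjusted p under 0.05, 3 passed at 12 h and 2 at 24 h, where 21.6% and 25% of all genes did. When Control 3 was left out, 2 were called at each time, where 20.1% and 20.9% of all genes were. Without Control 3, GAB2, a docking adaptor for SHP2 named after its values were seen, was called lower at 12 h (−0.42, adjusted p = 0.0133) and at 24 h (−0.55, adjusted p = 0.00313). SHC1, an adaptor that links phosphorylated receptors to GRB2, read 10.66, 10.76 and 10.68 at 12 h and 11.10, 10.69 and 10.83 at 24 h, against 10.28, 10.28 and 10.26 in controls. All 6 JQ1 arrays lay above all controls, Control 3 included. It rose at 12 h (0.42, SE 0.10, adjusted p = 0.0351) and at 24 h (0.60, SE 0.10, adjusted p = 0.00648). The 24 h call held whichever array was dropped, at adjusted p of 0.0273 or less, and the 12 h call was lost when Control 1 or 2, a JQ1 12 h array or JQ1 24 h replicate 3 was left out (up to 0.117).

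Of 16 genes known as STAT3 targets in other settings, 12 had a row. At 12 h 1 fell and 0 rose, where 4.39% of all genes fell and 3.54% rose. At 24 h 0 were called, where 11.5% of all genes were. At an unadjusted p under 0.05, 2 of the 12 passed at 12 h and 3 at 24 h, where 21.6% and 25% of all genes did. The median difference was −0.09 at 12 h and −0.03 at 24 h, and −0.30 and −0.23 without Control 3. The gene that fell was IL4R, a receptor chain for IL-4 and IL-13, with 7.80, 7.58 and 7.73 at 12 h and 8.10, 7.95 and 7.95 at 24 h, against 8.62, 8.64 and 7.95 in controls. Its 12 h difference was −0.70 (SE 0.17, adjusted p = 0.0386) and its 24 h difference −0.40 (adjusted p = 0.181), and the 12 h call was kept only when Control 3 was the array left out (adjusted p up to 0.137 otherwise). MCL1, an anti-apoptotic relative of BCL2, averaged 10.51 ± 0.11 at 12 h and 10.30 ± 0.09 at 24 h, against 10.70 ± 0.29 in controls (SD, n = 3 each), and was not called (−0.19 and −0.40, adjusted p = 0.515 and adjusted p = 0.103).

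This list was low in Control 3: 11 of its 12 measured genes read below the average of Controls 1 and 2, with a median gap of −0.59, beside −0.01 over all genes. Without Control 3, 10.5% of all genes fell at 12 h and 11.3% at 24 h, and 9.57% and 9.61% rose. Of the 12, 4 fell and 0 rose at each time. They were IL4R (−0.93 at 12 h and −0.63 at 24 h), MCL1 (−0.36 and −0.57), the kinase gene PIM1 (−0.67 and −0.64) and SBNO2, a corepressor gene of the IL-10 and STAT3 pathway (−0.51 and −0.48). PIM1 read 8.72, 8.31 and 8.78 at 12 h and 8.75, 8.37 and 8.78 at 24 h, against 9.24, 9.31 and 7.57 in controls. PIM1 and SBNO2 are named because they were called without Control 3, a choice made after their values were seen.

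Over all 6 lists, 36 of 58 pathway genes had a row. With all arrays 2 rose and 3 fell at 12 h, where 3.54% of all genes rose and 4.39% fell, and 1 rose and 1 fell at 24 h, where 5.17% rose and 6.34% fell. Their median difference was −0.02 at 12 h and 0.01 at 24 h, beside 0.01 and 0.01 over all genes. It was −0.12 and −0.08 without Control 3. Without Control 3, 3 rose and 8 fell at 12 h and 2 rose and 8 fell at 24 h. The share of all genes was then 9.57% up and 10.5% down at 12 h, and 9.61% up and 11.3% down at 24 h. Of the 11 and 10 genes called, 9 were called at both times.

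**Figure D3:**
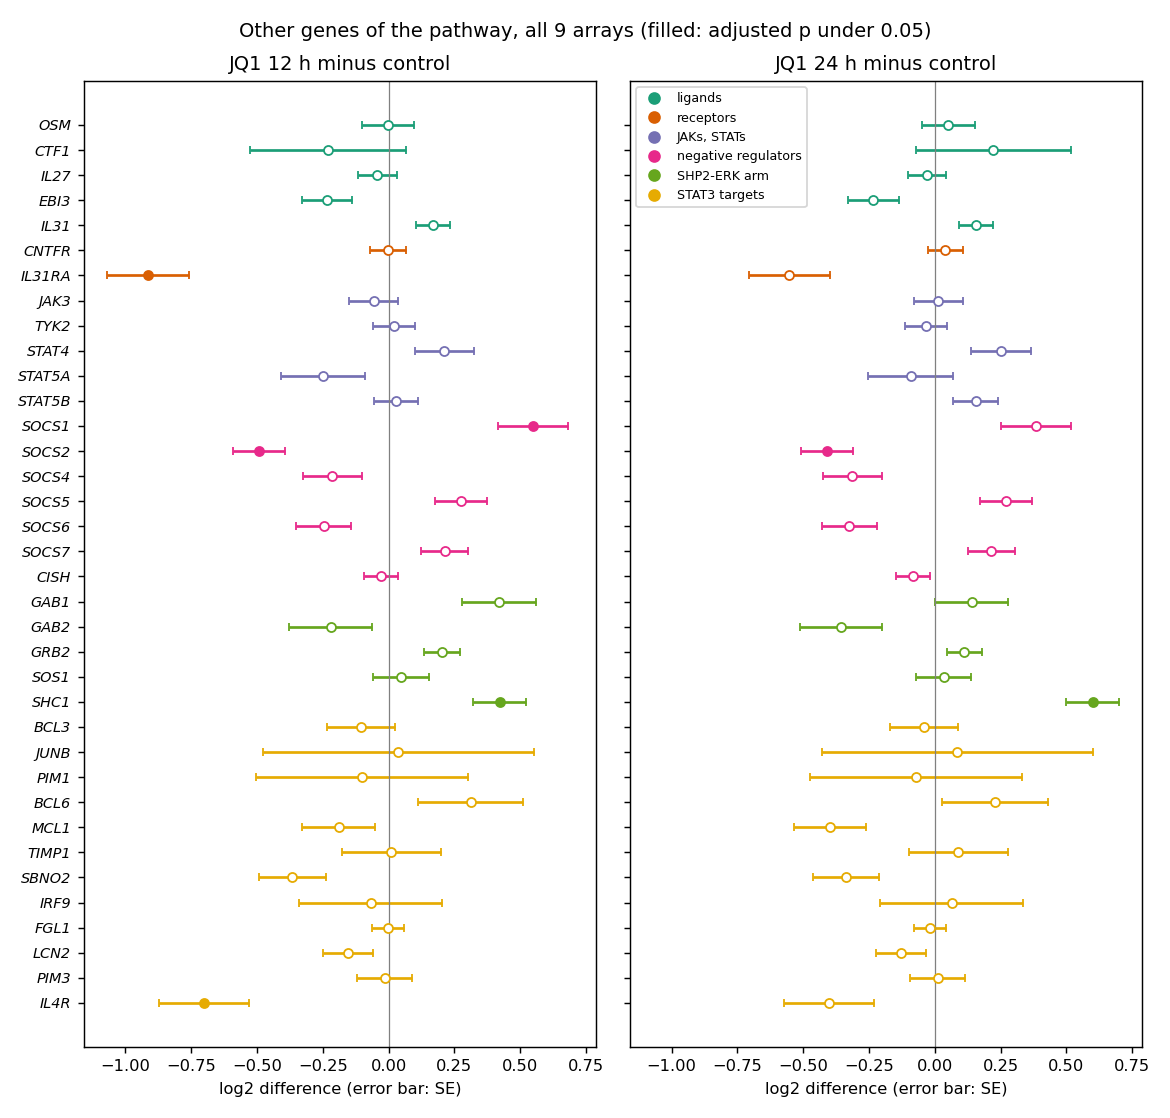
Log2 difference (x axis, with SE) of the 36 measured pathway genes outside the set, for JQ1 12 h minus control on the left and JQ1 24 h minus control on the right, all 9 arrays, coloured by list and filled where the adjusted p was under 0.05. IL31RA (−0.91) and IL4R (−0.70) lie lowest at 12 h, and SHC1 lies at 0.42 at 12 h and 0.60 at 24 h.

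Between the JQ1 times, 0 of the 9 genes were called by limma, where 0.00672% of all genes were, and 1 passed at an unadjusted p under 0.05, where 6.69% of all genes did. That gene was SOCS3, whose 24 h values all lay above its 12 h values (log2 difference 0.34, 95% interval 0.16 to 0.53, unadjusted p = 0.00246, adjusted p = 0.446). IL11 was also higher at 24 h in all 3 arrays than in any 12 h array, by a mean of 0.17 (adjusted p = 0.966). The groups were separate for 12.9% of all genes, and with 24 h higher for 5.76%. For LIF the difference was 0.39 with overlapping groups (95% interval −0.68 to 1.47, adjusted p = 0.94). These limma tests used 1 spread over all 3 groups, so the scatter of the controls entered them though no control was compared. The SE for LIF was 0.48 with all arrays and 0.19 without Control 3 (adjusted p = 0.461 in the latter fit). For IL11 it was 0.33 and 0.07 (adjusted p = 0.369 in the latter fit). Without Control 3, 0 of the 9 were called, where 0.148% of all genes were, and 3 passed at an unadjusted p under 0.05, where 11.7% of all genes did.

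The genes with the pattern most like that of LIF were found by centring each gene on its own mean and taking the root mean square (RMS) difference over the 9 arrays. They were the homeobox gene HOXB9 (RMS 0.33 log2), the adhesion receptor ADGRG1 (0.34), the antisense transcript TLR8-AS1 (0.34), the thrombomodulin gene THBD (0.35) and TRIML2 (0.36). All 5 read lower in Control 3 than in Controls 1 and 2, with gaps to their average between −2.01 and −1.31 log2. Such a gap follows from the choice, since Control 3 was among the arrays used to find these genes. Over the 8 arrays without Control 3 the nearest were CLDN1, a tight junction claudin (0.20), ADGRG1 (0.32), the follistatin gene FST (0.33), the leukocyte adhesion receptor ICAM1 (0.35) and TRIML2 (0.35). CLDN1, at 5.62, 4.96 and 5.36 at 12 h and 5.62, 5.31 and 5.44 at 24 h, against 8.73, 8.77 and 5.57 in controls, differed from LIF in Control 3, where it lay among the JQ1 arrays. So did ICAM1, at 6.68 in Control 3, with JQ1 values from 5.92 to 6.87. FST differed the other way, at 8.99 in Control 3 against 9.33 and 9.30 in Controls 1 and 2.

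For IL11 the nearest genes were the claudin CLDN7 (RMS 0.07 log2), RBCK1, a subunit of the linear ubiquitin ligase (0.09), CCZ1P-OR7E38P (0.09), the spermine oxidase gene SMOX (0.09) and CLTRN (0.10). None of these 5 was called at either time with all arrays. The 5 were chosen for a pattern like that of IL11, itself not called, so this follows largely from the choice. Over the 8 arrays without Control 3 the nearest genes to IL11 were RBCK1 (0.04), FOXP1 (0.06), ZNF358 (0.07), CCZ1P-OR7E38P (0.07) and CLDN7 (0.07). Within the set, the pattern of IL11 was nearest to that of OSMR (0.25), the nearest member to LIF was IL11 (0.99), and the closest pair was JAK1 and STAT3 (0.14). The RMS difference describes these 9 arrays and carries the size of a change, so genes with small changes lie close to each other.

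**Figure D4:**
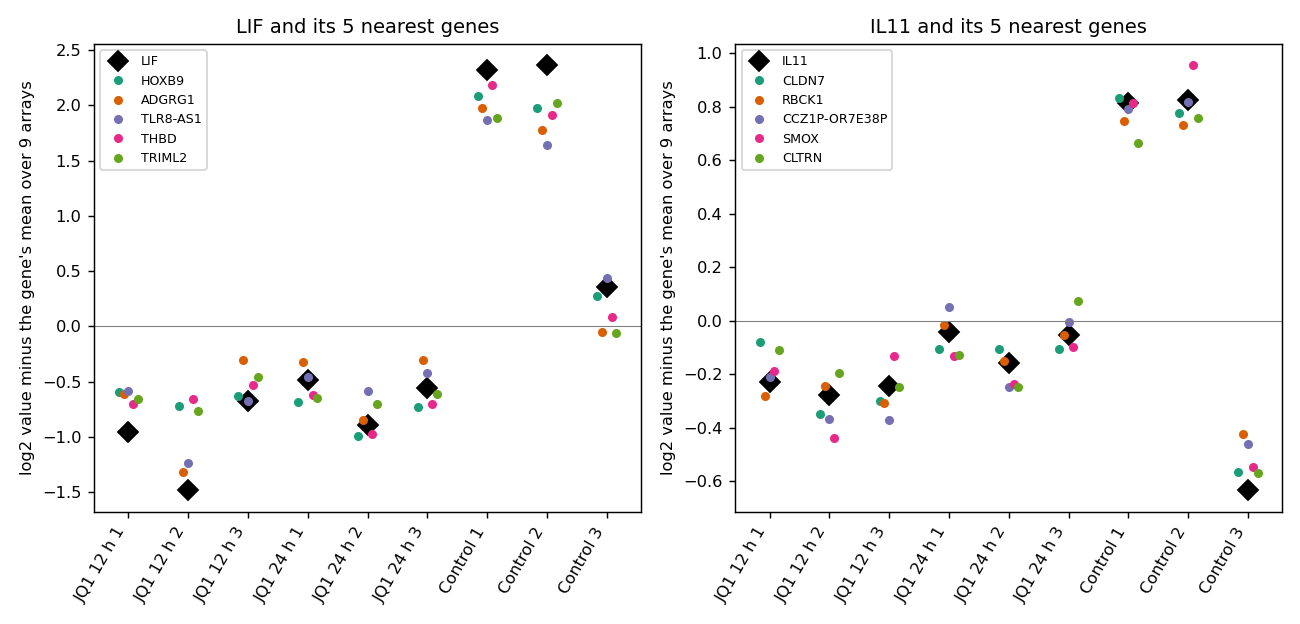
Log2 value minus the gene's mean over the 9 arrays (y axis) in each array (x axis) for LIF (left) and IL11 (right), as diamonds, with the 5 genes nearest to each over the 9 arrays as coloured points. LIF and its nearest genes lie between the JQ1 arrays and Controls 1 and 2 in Control 3, while IL11 and its nearest genes are lowest in Control 3. The genes were chosen over all 9 arrays, so their likeness in Control 3 follows from the choice.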

How the data were processed

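RNA abundance was measured on Affymetrix Human Gene 2.0 ST arrays, 1 per sample, in 3 JQ1 12 h, 3 JQ1 24 h and 3 control samples. The authors deposited 1 table of log2 values (53617 rows, 2.01 to 13.88); the log2 base was inferred from that range. Transcriptome Analysis Console was used, per the submitters' processing notes; its version, the background correction and the normalization are not given in the sources used here. Array medians were nearly equal, so changes are relative to the other genes, and a change in total RNA per cell would not show.

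Rows were named through the platform gene table (16098 with 1 symbol, 37519 unnamed here), and the row with the highest mean stood for a gene, which left 14884 genes. limma 3.58.1 (R 4.3.3) fitted 1 mean per group to all 9 arrays with empirical Bayes moderation (3.14 prior degrees of freedom) and Benjamini-Hochberg adjustment within each comparison; called means an adjusted p under 0.05. The script was tested on simulated data with independent noise and no outlying array, so that test does not cover a sample like Control 3. The number of arrays limits the precision.

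All members of the set are named, and from 6 pathway lists each gene called and the one with the highest mean value, with the 5 nearest genes of LIF and IL11. JUNB falls outside this rule and was added after its values were seen. Members and lists were chosen with earlier results of these data known. Comparisons with control share the control arrays. Alternatives were a replicate block, a filter on genes with a mean under 5, quantile normalization, fits of the 2 groups compared, a trended robust moderation, the mean of a gene's rows and leaving out each array.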

Additional observations from a re-analysis of the deposited data

How the results depend on the processing

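The 3 calls in the set at each time (LIF, IL6R and SOCS3) were kept with the dim-gene filter, quantile normalization, the trended robust moderation, the mean of a gene's rows and the replicate block. With only the 2 groups compared in the fit, 1 gene of the set was called at 12 h, and 2 pathway genes and 577 of all genes; at 24 h 994 of all genes were called, 2 of them in the set. LIF then had adjusted p = 0.0534 at 12 h and adjusted p = 0.0573 at 24 h, and IL6R adjusted p = 0.061 at 12 h. This fit has fewer arrays to estimate the spread, and it no longer shares the spread with the third group. LIF had an SD of 1.15 in controls, 0.41 at 12 h and 0.22 at 24 h. Its SE against control was 0.56 at 12 h and 0.54 at 24 h in this fit, and 0.48 with all arrays. Between the JQ1 times it was 0.20 in this fit, and 0.48 with all arrays. Why the calls were lost was not tested. Whether replicate numbers pair the samples was not settled. Of 9 same-numbered pairs 2 had correlated deviations over 0.1, and 2 of 9 arrays correlated best with their own number. The highest correlations were across numbers, of Control 3 with JQ1 12 h replicate 2 (0.29) and JQ1 24 h replicate 2 (0.284). These deviations are from a mean of 3 arrays, so Control 3 also shapes those of Controls 1 and 2, and the check cannot exclude pairing. With the number as a block, 967 and 1478 of all genes were called at 12 h and 24 h, 4 and 1 pathway genes, and 3 and 3 in the set.

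Leaving out 1 array moved the count in the set from 2 to 5 at 12 h and from 2 to 4 at 24 h, the pathway count from 1 to 11 and from 1 to 10, and the count over all genes from 543 to 2986 and from 786 to 3111, each highest without Control 3; between the JQ1 times it ran from 1 to 22. Some differences that were not called with all arrays changed sign: OSMR ran from −0.52 to 0.0057 at 12 h (called at −0.52, without Control 3) and from −0.31 to 0.22 at 24 h, JAK1 from −0.0694 to 0.36 and from −0.0589 to 0.37, and JAK2 from −0.13 to 0.10 and from −0.0714 to 0.05. Between the JQ1 times the ranges were −0.15 to 0.0661 for LIFR, −0.14 to 0.0044 for IL6R, −0.016 to 0.0282 for JAK1 and −0.11 to 0.12 for JAK2. The cause was not tested.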

Other observations

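Control 3 was the lowest of the 9 arrays for 6 of the 9 genes of the set (IL11, LIFR, OSMR, JAK1, STAT3 and SOCS3), as it was for 17.5% of all genes. Of the 36 measured pathway genes outside the set it was lowest for 12, among them JUNB, an AP-1 subunit, at 7.42 in Control 3 against 9.46 and 9.52 in Controls 1 and 2, and PIM1 at 7.57 against 9.24 and 9.31. JUNB is named here after its values were seen.

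Some arrays held exactly the same value for a gene. This was so for 5 of the 9 genes of the set and for 44.4% of all genes. LIFR was at 7.9208 in JQ1 12 h replicate 2, JQ1 24 h replicate 2 and Control 2, and JAK2 was at 6.5501 in JQ1 24 h replicate 1 and in Controls 2 and 3.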
